A study of Mus musculus with 10 samples.

Results

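The genes described here encode enzymes that break down tryptophan and that make or use NAD in the liver. The 10 members, chosen by symbol, were Tdo2, Afmid, Kmo, Kynu, Haao, Qprt, Acmsd, Nampt, Nadsyn1 and Nnmt (in the files tdo2, afmid, kmo, kynu, haao, qprt, acmsd, nampt, nadsyn1 and nnmt), and all 10 were found among the 14812 gene entries of the files. Single hepatocytes of C57BL/6 male mice were sequenced at 4 zeitgeber times (ZT, hours of the light-dark cycle, with ZT0 by convention at lights on) to follow gene expression in time and in space. All mice were 3 months old, had free access to chow and were anaesthetised with ketamine and xylazine, no genetic change is stated, and time is the one treatment the labels give that differs between groups. There were 3 libraries at ZT0 (A, B and C), 2 at ZT6 (A and B), 3 at ZT12 (A, B and C) and 2 at ZT18 (A and B), each prepared by version 2 of the 10x Chromium 3' chemistry from cells that collagenase perfusion and a Percoll gradient had yielded. Neither the number of mice behind a library nor whether libraries came from separate mice is stated, so p-values measure the spread between libraries, which may be technical.

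In the liver most dietary tryptophan is degraded along the kynurenine pathway, which opens the indole ring and ends either in carbon dioxide or in quinolinate, a precursor of NAD. The enzyme encoded by Acmsd diverts the last common intermediate away from quinolinate, and that of Qprt commits quinolinate to NAD. NAD is also rebuilt from nicotinamide by Nampt, the rate-limiting enzyme of salvage and a known output of the circadian clock, whereas Nnmt methylates nicotinamide and so removes it from salvage.

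The 250 bases before the annotated start of Nampt, a member that differed over time, are shown because the clock and the nuclear receptors act on promoters. The sequence is from RefSeq (GRCm38.p6), on the plus strand at chr12:32820085-32820334. Capitals mark matches to AGGTCA, the core motif of nuclear receptor sites, on either strand.
Nampt: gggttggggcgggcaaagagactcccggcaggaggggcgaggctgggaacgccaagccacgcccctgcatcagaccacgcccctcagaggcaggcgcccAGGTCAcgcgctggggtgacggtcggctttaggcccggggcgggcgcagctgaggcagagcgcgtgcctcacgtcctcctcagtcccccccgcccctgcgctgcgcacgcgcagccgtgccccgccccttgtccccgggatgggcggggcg
The match began 151 bases before the start. Of the 10 members 8 had an entry in the promoter table (not Kynu and Nnmt), and windows from 250 bases before to 50 after the start were searched on both strands. AGGTCA was found in 4 of the 8 and in 16.3% of all 32851 promoters of the same length. CACGTG, the E-box, was found in 0 of the 8 and in 7.15% of all promoters, which says only that these letters are not in those windows. CACGTT, the E-prime box, was found in Haao alone (4.68% of all promoters), AGAACA, the core motif of glucocorticoid receptor sites, in Kmo and Haao (19.0%), and CTTTGAT, the TCF site, in Haao (3.73%). The RefSeq start lay 790 bases from the outer end of the GENCODE gene for Nampt, 474 for Tdo2, 1173 for Haao and 11812 for Kmo, so matches refer to the RefSeq windows alone.

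The libraries held 18378 cells in all and 1454623 to 7144803 UMIs each (unique molecular identifiers, counts of tagged molecules), with 1588 to 2662 UMIs in the median cell. Hepatocyte markers (Alb, Apoa1, Ttr, Serpina1c and Cyp3a11) summed to 36599 to 67580 CPM (UMIs per 1000000 of the library). Among 9 macrophage markers 5 had a UMI, the sum was 0 to 11.2 CPM, and Clec4f, Csf1r, C1qa and C1qb were at 0. Endothelial, stellate, lymphocyte, neutrophil and cholangiocyte markers summed to at most 18.4, 11.6, 0.609, 7.84 and 32.5 CPM. The cholangiocyte sum was nearly all Sox9, with 565 UMIs in all libraries together, against 2 for Krt19, 3 for Krt7 and 3 for Epcam. Erythroid markers summed to 99.0 to 361 CPM at ZT18 and to 72.2 to 108 CPM elsewhere. Alas2 alone made up 67.4 to 107 CPM of this sum, with 3478 UMIs in all libraries. The globin gene Hbb-bs had 609 UMIs (0.338 to 142 CPM), and Hba-a1, Hba-a2 and Hbb-bt had 252, 239 and 119, each with 0 in some library. The median share of mitochondrial UMIs per cell was 11.97% (ZT12C) to 24.7% (ZT12A). Both ZT18 libraries carry index column 4, which no other library carries, so ZT18 and that column cannot be told apart. The other columns were 3 (ZT0A and ZT12A), 5 (ZT0C and ZT12C) and 7 (ZT0B, ZT12B and both ZT6 libraries).

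Over the day, Nampt and Acmsd changed. Of the 10 members 2 passed the rhythm test, a fit of a 24-h wave (edgeR's quasi-likelihood test, Benjamini-Hochberg adjusted p under 0.05), against 5.14% of 8908 genes tested. The period was set to 24 h and 4 times were sampled, so the test does not establish a period and fitted maxima are approximate. Nampt rose about 3.4-fold from ZT0 to ZT12, and Acmsd about 3.5-fold from ZT6 to ZT18. The same 2 members passed the test for any difference among the 4 times, against 6.58% of genes. The median amplitude (log2 units between the mean level and the fitted peak) was 0.41 over the members and 0.25 over all genes tested. Means below are of n = 3 libraries (ZT0, ZT12) or n = 2 (ZT6, ZT18), and all 10 members passed the filter on low levels (a mean of at least 3 CPM). Sums over a library do not separate fewer cells with a transcript from less RNA per cell.

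**Figure D1:**
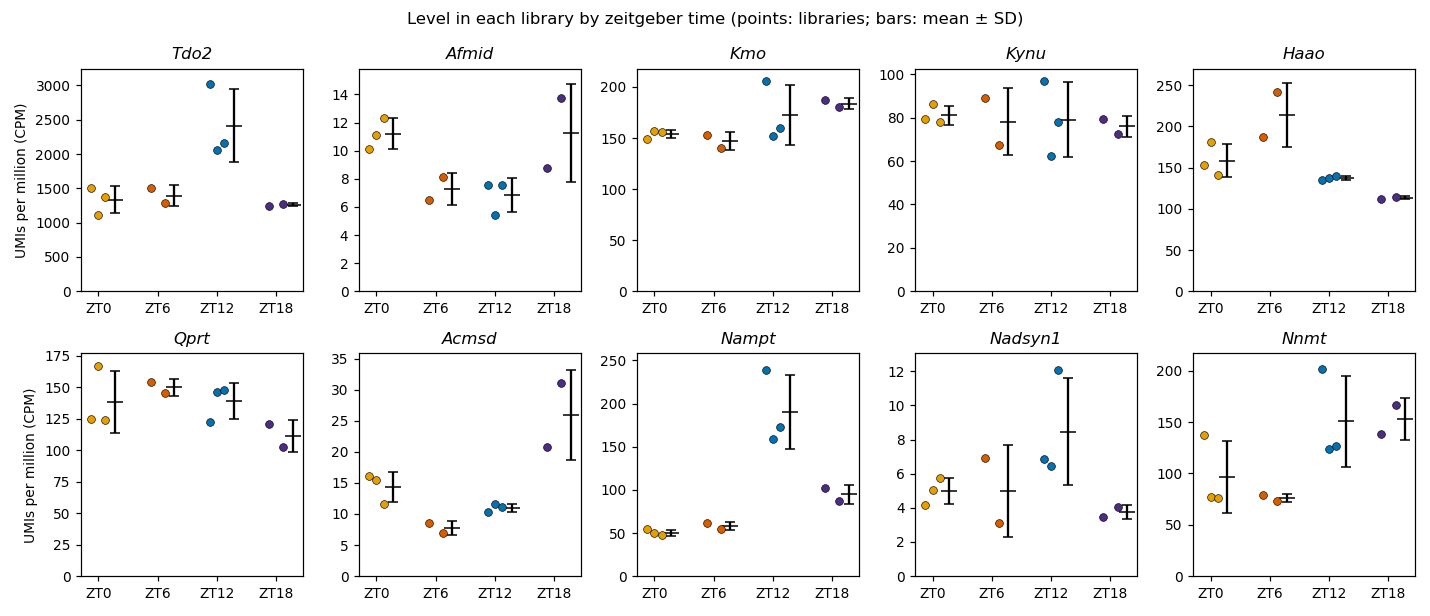
Level of each member in CPM (vertical axis, linear, from 0) in each library (points) at the 4 zeitgeber times, with the mean and SD beside the points. Nampt is highest in the 3 ZT12 libraries (159 to 239 CPM) and Acmsd in the 2 ZT18 libraries (20.7 and 31.0 CPM), with no overlap with the other times.

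Tdo2 encodes tryptophan 2,3-dioxygenase, the liver enzyme that opens the ring of tryptophan and sets the pace of its breakdown. It measured 1509, 1118 and 1372 CPM at ZT0, 1498 and 1285 at ZT6, 3026, 2055 and 2167 at ZT12, and 1245 and 1277 at ZT18. All 3 ZT12 libraries lay above the other 7, which overlapped among themselves. The ZT12 level was 2416 ± 531 CPM against 1333 ± 199 at ZT0 (SD, n = 3 each), but the log2 difference of 0.71 ± 0.25 (SE) did not pass (edgeR adjusted p = 0.17). Within index columns 3, 5 and 7 the ratio of ZT12 to ZT0 was 2.0, 1.58 and 1.84. With the column as a block in the fit the difference was 0.70 and passed (edgeR adjusted p = 0.0102). The rhythm of Tdo2 did not pass (amplitude 0.36; edgeR adjusted p = 0.26). With that block it passed (0.39; edgeR adjusted p = 0.0239). That fit compares ZT0, ZT6 and ZT12 alone, because column 4 holds only the ZT18 libraries, so it does not test a wave over all 4 times. ZT12A was the library with the highest mitochondrial share and the fewest UMIs in all. Without it the difference of ZT12 from ZT0 was 0.49 (edgeR adjusted p = 0.366). The rhythm amplitude was then 0.22 (edgeR adjusted p = 0.497).

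Afmid encodes the formamidase that releases kynurenine. It measured 10.1, 11.1 and 12.3 CPM at ZT0, 6.501 and 8.11 at ZT6, 7.56, 5.46 and 7.53 at ZT12, and 8.80 and 13.7 at ZT18. The ZT0 libraries lay above all ZT6 and ZT12 libraries, from 58 to 75 UMIs each, and the ZT18 libraries straddled them. The difference of ZT12 from ZT0 was -0.92 ± 0.26 (log2 ± SE; edgeR adjusted p = 0.0777). With the letters A to C as a replicate block, which pair these groups, it was -0.95 and passed (edgeR adjusted p = 0.0472). The ratio of ZT0 to ZT12 was 1.34, 1.64 and 2.04 within columns 3, 5 and 7. Afmid shares its strand with the overlapping gene Gm20708, not analysed here, and overlaps Tk1 on the other strand, and how reads of overlapping genes were counted is not stated, so its values are uncertain.

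Kmo, which hydroxylates kynurenine, and Kynu, which cleaves the product, did not pass any test over time. Kmo averaged 154 ± 3.96 (ZT0), 147 ± 8.88 (ZT6), 173 ± 29.2 (ZT12) and 184 ± 5.21 CPM (ZT18; SD), with overlap between every pair of neighbours in the order of means. Kynu averaged 81.1 ± 4.42, 78.1 ± 15.4, 79.1 ± 17.3 and 76.0 ± 4.98 CPM at the same times. Its largest difference between times was 1.15-fold (edgeR adjusted p = 0.867). Kmo overlaps Fh1 on the opposite strand over 5255 bases, which limits how far its UMIs can be assigned.

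Haao, the dioxygenase that makes the intermediate at the branch point, was lower in turn from ZT6 to ZT0, ZT12 and ZT18, without passing the test. Its libraries measured 187 and 241 CPM at ZT6, 153, 181 and 141 at ZT0, 135, 138 and 140 at ZT12, and 112 and 115 at ZT18. Each time lay wholly above the next in that order. For ZT18 against ZT6 the log2 difference was -0.85 ± 0.24 (SE; edgeR adjusted p = 0.069), and the fitted peak was at ZT 4.50 (amplitude 0.46; edgeR adjusted p = 0.0716). Under 3 of 17 other settings the ZT18 difference passed, with edgeR adjusted p from 0.0272 to 0.462 over all 17. The rhythm passed in 3 of 19, with DESeq2 (DESeq2 adjusted p = 0.0103), with the letters as a replicate block (edgeR adjusted p = 0.0346) and without ZT0C (edgeR adjusted p = 0.0475), and the test for any time passed with the letters as a block (edgeR adjusted p = 0.0468). A complete order of the 4 times without overlap was seen for 3 members, Haao, Acmsd and Nampt, and for 0.763% of 8908 genes. Each of these 3 orders holds a gap within counting error. The lowest ZT0 and highest ZT12 libraries were at 141.3 and 139.6 CPM for Haao, and at 11.65 and 11.62 CPM for Acmsd.

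Qprt converts quinolinate to a NAD precursor, and Acmsd works against it on the other branch. Acmsd measured 16.1, 15.5 and 11.6 CPM at ZT0, 8.53 and 6.95 at ZT6, 10.3, 11.6 and 11.0 at ZT12, and 20.7 and 31.0 at ZT18. Both ZT18 libraries lay above the other 8, and both ZT6 libraries below them. The counts behind these values were 15 to 115 UMIs per library, and the 95% exact Poisson interval for the highest value was 25.6 to 37.2 CPM, counting error only. From ZT6 to ZT18 Acmsd rose by 1.81 ± 0.31 (log2 ± SE; edgeR adjusted p = 0.00702). It was the 1 member called in that comparison, where 3.79% of genes were called, 2.35% higher and 1.45% lower at ZT18. Its rhythm had an amplitude of 0.96 with its maximum fitted to ZT 19.0 (edgeR adjusted p = 0.00711).

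That result rests on few libraries. The rise of Acmsd was lost without ZT6A (1.92; edgeR adjusted p = 0.095), without ZT6B (1.73; edgeR adjusted p = 0.0873) or without ZT18B (1.47; edgeR adjusted p = 0.104). Those settings left 1 library at ZT6 or ZT18, and fewer of all genes were called in them. The rhythm did not pass with the index column as a block (amplitude 0.85; edgeR adjusted p = 0.0841) or without both ZT18 libraries (0.77; edgeR adjusted p = 0.174). Both of these fits compare ZT0, ZT6 and ZT12 alone, because column 4 holds only the ZT18 libraries. They cannot judge a maximum at ZT18. The index column moved with ZT18, and erythroid markers were raised in 1 of the ZT18 libraries (361 CPM, against 99.0 in the other); their part in the result was not tested. An antisense RNA that overlaps Acmsd, 2900009J06Rik, had 141 UMIs in all libraries together, with means of 1.65 to 3.72 CPM per time. Qprt stayed between 112 ± 12.8 CPM at ZT18 and 149.9 ± 6.61 at ZT6 (SD, n = 2 each), which differ by -0.35 ± 0.23 (log2 ± SE; edgeR adjusted p = 0.442).

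Nampt encodes the enzyme that turns nicotinamide into nicotinamide mononucleotide. It measured 54.3, 49.9 and 47.3 CPM at ZT0, 61.8 and 54.9 at ZT6, 239, 159 and 173 at ZT12, and 102 and 87.3 at ZT18. Each time was separated from the next in the order ZT12, ZT18, ZT6, ZT0, though ZT6 from ZT0 only by a gap within counting error. From ZT0 to ZT12 Nampt rose by 1.76 ± 0.21 (log2 ± SE; edgeR adjusted p = 3.44e-04), in all 3 ZT12 libraries. It was the 1 member called in that comparison, where 3.44% of genes were called, 1.74% higher and 1.70% lower at ZT12. The rhythm had an amplitude of 0.96 with its maximum fitted to ZT 13.6 (edgeR adjusted p = 0.00177).

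The rise of Nampt was seen within each index column, at 4.39-fold in column 3, 3.65-fold in column 5 and 3.19-fold in column 7. It passed under all 18 alternatives run, from 1.54 (without ZT12A; edgeR adjusted p = 0.0011) to 1.91. The rhythm passed under all 19 run for it. From ZT6 to ZT18 the difference was 0.78 ± 0.26 (log2 ± SE; edgeR adjusted p = 0.108), and with the letters as a block 0.78 (edgeR adjusted p = 0.0351), although the letters do not pair those times. The annotated lincRNA Gdap10 lies on the same strand inside Nampt over 5033 bases. Its means were 5.98, 35.8, 31.2 and 10.1 CPM at ZT0, ZT6, ZT12 and ZT18, so its order of times differed from that of Nampt, and how shared reads were split was not stated.

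Nadsyn1 makes NAD from its acid form and was the least sampled member, with 8 to 46 UMIs per library. It averaged 4.99 ± 0.777 (ZT0), 4.999 ± 2.70 (ZT6), 8.45 ± 3.12 (ZT12) and 3.75 ± 0.413 CPM (ZT18; SD). The log2 difference of 0.56 ± 0.31 (SE) between ZT12 and ZT0 did not pass (edgeR adjusted p = 0.405).

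Nnmt, the methyltransferase that removes nicotinamide, measured 137, 77.0 and 75.6 CPM at ZT0, 79.0 and 73.4 at ZT6, 201, 124 and 127 at ZT12, and 139 and 167 at ZT18. ZT0A lay among the ZT12 libraries, apart from ZT0B and ZT0C. The difference of ZT18 from ZT6 was 1.08 ± 0.36 (log2 ± SE; edgeR adjusted p = 0.111), and without ZT0A it was 1.09 and passed (edgeR adjusted p = 0.0344). The rhythm likewise did not pass with all libraries (amplitude 0.59, maximum fitted to ZT 16.4; edgeR adjusted p = 0.137) and passed without ZT0A (0.70; edgeR adjusted p = 0.02). It also passed with the index column as a block (0.48; edgeR adjusted p = 0.0411), a fit that compares ZT0, ZT6 and ZT12 alone. Within columns 3, 5 and 7 the ratio of ZT12 to ZT0 was 1.47, 1.68 and 1.61, and with the column as a block the difference of 0.52 passed (edgeR adjusted p = 0.0371).

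Along the lobule the list leaned to the portal side. Cells of each library were ordered by 8 periportal landmark genes against 8 pericentral ones, none of them a member, and split into 3 zones of equal cell number. Of the 10 members 7 were higher in the periportal than in the pericentral zone, Nnmt, Acmsd, Nampt, Qprt, Kynu, Tdo2 and Kmo, and 0 were higher in the pericentral zone. Over all 8907 genes 24.6% differed, 11.9% periportal and 12.7% pericentral. The median log2 difference was 0.50 over the members and -0.01 over all genes. Periportal cells had more UMIs in the median cell than pericentral ones in 7 of 10 libraries. Cholangiocyte markers, nearly all of them Sox9 UMIs, summed higher in the periportal zone in 9 of 10 (at most 48.1 CPM there). Hepatocyte markers summed higher there in 10 of 10 libraries (medians of 47338 CPM pericentrally and 67794 periportally), endothelial markers in 1 of 10 (15.6 and 9.32 CPM) and erythroid markers in 0 of 10 (95.3 and 69.5 CPM). Most of the erythroid UMIs in the libraries were of Alas2. The part of depth and of these markers in the differences was not tested.

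**Figure D2:**
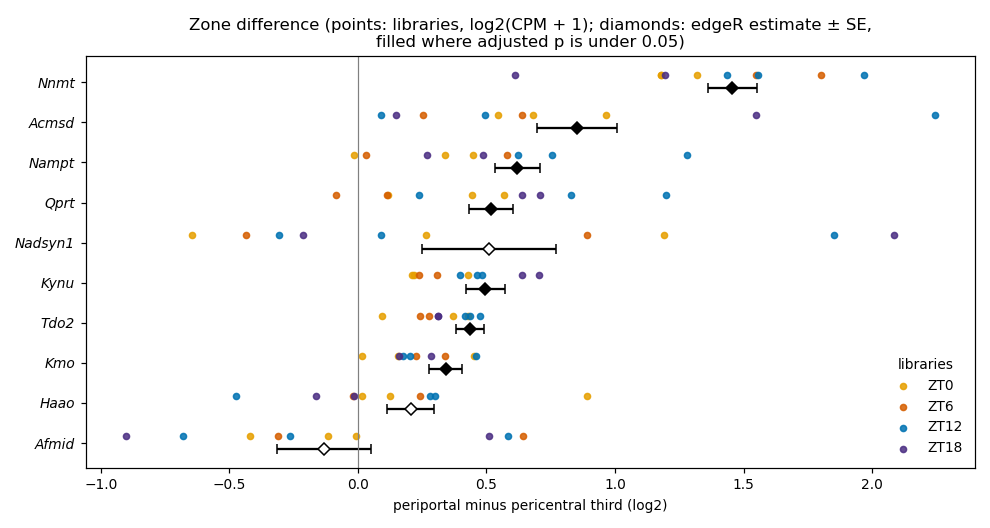
Difference between the periportal and the pericentral zone for each member (horizontal axis, log2), in each library on the log2(CPM + 1) scale (coloured points) and as the edgeR estimate with its SE (diamonds, filled where the adjusted p is under 0.05). Nnmt, Acmsd, Tdo2, Kynu and Kmo are above 0 in 10 of 10 libraries, and Afmid and Haao scatter on both sides.

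Nnmt had the widest zone difference of the members. In the pericentral zone its libraries ran from 34.5 through a median of 64.8 to 133 CPM, and in the periportal zone from 117 through 184 to 316. The ranges overlapped between libraries, yet within every one of the 10 libraries the periportal zone was higher. The log2 difference was 1.46 ± 0.10 (SE; edgeR adjusted p = 2e-14), or 2.74-fold. Over 8 layers of equal cell number its mean over the 10 libraries rose at all 7 steps, from 61.4 CPM in the central layer to 203 in the portal layer, 3.30-fold.

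Nampt ran from 43.4 through 64.1 to 196 CPM in the pericentral zone and from 47.9 through 85.1 to 302 in the periportal zone. It was higher in the periportal zone in 9 of 10 libraries, by 0.62 ± 0.09 (log2 ± SE; edgeR adjusted p = 8.99e-07). Like that of Nnmt, its mean over the 10 libraries rose at all 7 steps between layers, from 79.9 to 136 CPM. At no time taken alone did Nampt rise at every step. From the central to the portal layer it went from 54.9 to 57.0 CPM at ZT0 and from 136 to 271 CPM at ZT12. Both enzymes use nicotinamide, and the ratio of Nnmt to Nampt was higher in the periportal zone in 10 of 10 libraries. The log2 ratio differed by 0.90 (SD 0.46, n = 10; exact two-sided sign-flip permutation p = 0.00195, the smallest 10 libraries can give, and 0.00391 adjusted over the 2 ratios tested).

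Acmsd averaged 10.4 ± 4.71 CPM in the pericentral, 14.3 ± 9.46 in the middle and 18.04 ± 9.29 in the periportal zone (SD, n = 10). It was periportal in 10 of 10 libraries, by 0.85 ± 0.16 (log2 ± SE; edgeR adjusted p = 5.9e-05), with its highest layer the sixth, at 18.8 CPM. Some of these directions rested on few UMIs, with 9 pericentral against 10 periportal in ZT12C, 6 against 8 in ZT6B and 1 against 8 in ZT12A. Qprt averaged 112 ± 32.3, 142 ± 20.97 and 151 ± 19.6 CPM over the same zones and was periportal in 9 of 10 libraries, by 0.52 ± 0.09 (edgeR adjusted p = 1.25e-05). Both branches were thus higher on the portal side. Their log2 ratio, Acmsd to Qprt, differed by 0.28 between zones (SD 0.71, n = 10), higher periportal in 8 of 10 libraries (exact two-sided sign-flip permutation p = 0.234, and 0.234 adjusted over the 2 ratios). Without ZT12C it differed by 0.44 and passed (exact permutation, adjusted p = 0.0391), the only alternative to do so. With a pseudocount of 5 CPM it differed by 0.10 (exact permutation, adjusted p = 0.566).

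**Figure D3:**
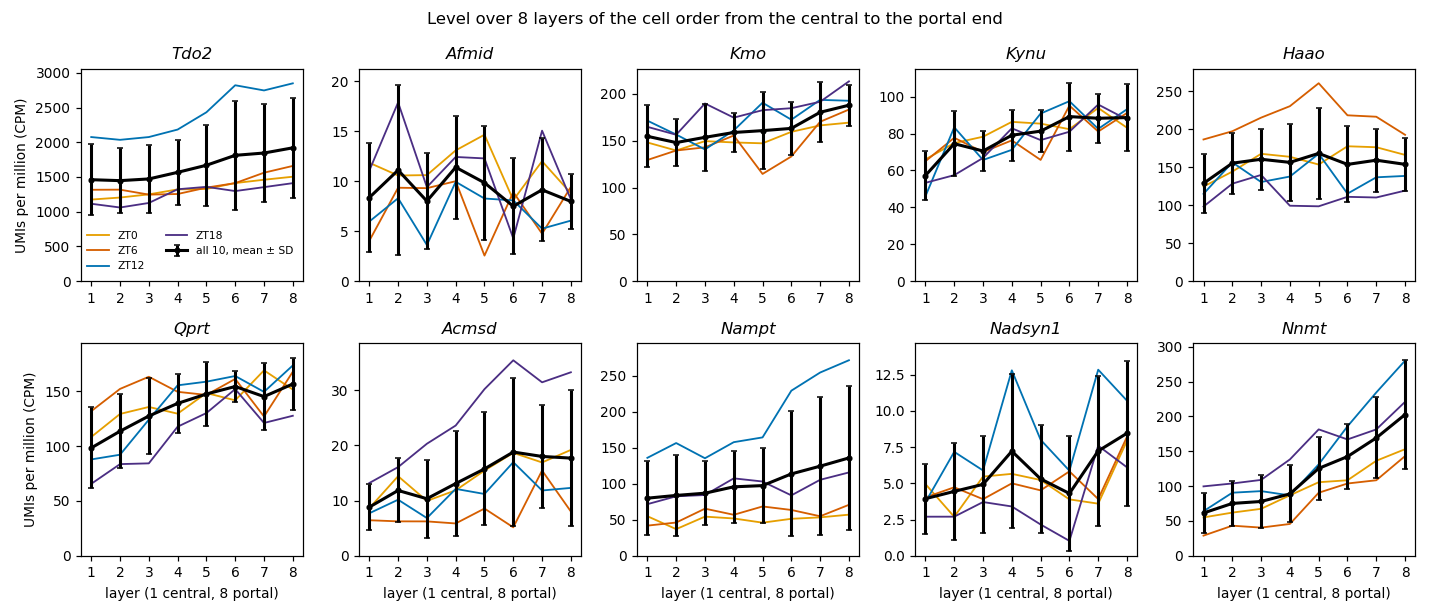
Level of each member in CPM (vertical axis, linear, from 0) over 8 layers of the cell order from central (1) to portal (8). Coloured lines are means per zeitgeber time and the black line is the mean ± SD of the 10 libraries. In the black line Nnmt and Nampt rise at every step, Tdo2 and Kmo are highest in layer 8, and Afmid and Haao have no steady slope.

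Of the 7 members called, the upstream Tdo2, Kynu and Kmo had the smallest zone differences, with Kynu close to Qprt. The sizes were not compared by a test. Tdo2 averaged 1454 ± 483 CPM in the pericentral, 1629 ± 556 in the middle and 1862 ± 718 in the periportal zone (SD, n = 10). Within libraries it was periportal in 10 of 10, by 0.44 ± 0.06 (log2 ± SE; edgeR adjusted p = 1.26e-07). Kynu was periportal by 0.50 ± 0.08 (edgeR adjusted p = 2.93e-06) and Kmo by 0.34 ± 0.06 (edgeR adjusted p = 6.18e-05), each in 10 of 10 libraries. Kmo was lost when cells of at least 3000 UMIs alone were used (0.25; edgeR adjusted p = 0.0929), a setting that left 3960 cells. Fh1, the gene that overlaps Kmo on the other strand, was periportal too, by 0.44 ± 0.09.

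The other 3 members gave no zone call in the main fit. Haao averaged 144 ± 36.3 CPM pericentrally and 156 ± 42.2 CPM periportally. It was higher on the portal side in 6 of 10 libraries, by 0.20 ± 0.09 (log2 ± SE; edgeR adjusted p = 0.105). Afmid differed by -0.13 ± 0.18 (edgeR adjusted p = 0.679), with 3 of 10 libraries higher periportal. Nadsyn1 differed by 0.51 ± 0.26 (edgeR adjusted p = 0.163), a size like that of Qprt with a wider error.

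The middle zone was set against the mean of the outer zones to find levels that peak between the veins. By edgeR 0 of 10 members passed, and 0 had an unadjusted p under 0.05. DESeq2 called 0 of the 7 members it gave an adjusted p. Over all 8894 genes 0.663% passed, 0.551% higher and 0.112% lower in the middle. Afmid had the largest value, 0.30 ± 0.16 (log2 ± SE; edgeR adjusted p = 0.635), with 10.6 ± 2.69 CPM in the middle zone against 9.11 ± 5.41 and 7.85 ± 2.32 in the pericentral and periportal zones.

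Whether the slope between zones follows the time of day was asked with a test of the zone difference over the 24-h wave. By edgeR 0 of 10 members passed, against 0.0337% of 8907 genes, and DESeq2 called 0 members. At an unadjusted p under 0.05 there were 3 members, Nnmt, Nampt and Qprt, and 541 of all 8907 genes. For Nnmt the difference between zones was 1.23 ± 0.08 (ZT0), 1.67 ± 0.18 (ZT6), 1.65 ± 0.28 (ZT12) and 0.90 ± 0.41 (ZT18) on the log2(CPM + 1) scale (SD over libraries; edgeR adjusted p = 0.369). It passed when cells of at least 3000 UMIs alone were used (amplitude 0.83; edgeR adjusted p = 0.00526).

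**Figure D4:**
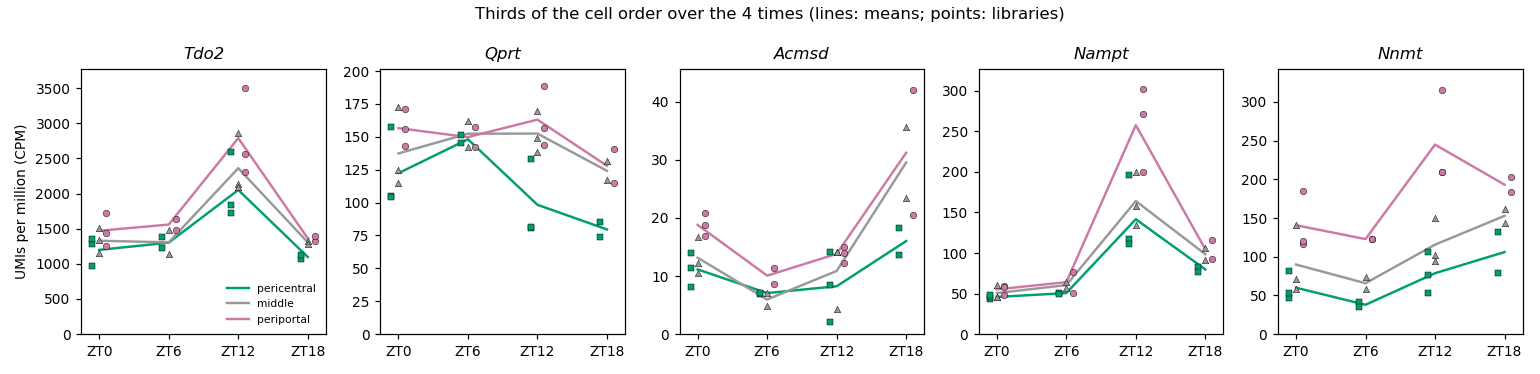
Level of Tdo2, Qprt, Acmsd, Nampt and Nnmt in CPM (vertical axis, linear, from 0) in the pericentral (squares), middle (triangles) and periportal (circles) zones of each library at the 4 times, with lines through the means. Nampt is higher at ZT12 than at ZT0 in all 3 zones, and the pericentral and periportal points of Nnmt do not overlap at any time.

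For Nampt the zone difference was 0.26 ± 0.24 (ZT0), 0.30 ± 0.39 (ZT6), 0.89 ± 0.35 (ZT12) and 0.38 ± 0.15 (ZT18; edgeR adjusted p = 0.662). The pericentral level of Nampt was 45.9 ± 2.49 CPM at ZT0 and 142 ± 47.1 at ZT12, and the periportal level 55.2 ± 6.38 and 258 ± 52.4 (SD, n = 3). All 3 ZT12 libraries lay above all 3 ZT0 libraries in each of these zones. For Qprt the zone difference was 0.38 ± 0.23, 0.01 ± 0.14, 0.76 ± 0.49 and 0.68 ± 0.05 at ZT0, ZT6, ZT12 and ZT18 (edgeR adjusted p = 0.748). Its pericentral level was 148 ± 4.27 CPM at ZT6 and 79.6 ± 8.53 at ZT18 (SD, n = 2), while its periportal level was 149.8 ± 10.5 and 128 ± 18.1 CPM.

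A wider list of 35 genes of the same chemistry was examined beside the members, of which 33 were in the files (not Ido1 and Nmrk2) and 28 were tested over time. The rhythm test called 0 of the 28, against 5.14% of all genes tested. For ZT12 against ZT0 1 of the 28 was called, against 3.44% of all genes. This was Slc25a51, a transporter that carries NAD into mitochondria, higher at ZT12 by 1.07 ± 0.25 (log2 ± SE; edgeR adjusted p = 0.0279). It was lost in 4 of 18 alternatives, without ZT0B, ZT6A, ZT12A or ZT12C, with edgeR adjusted p up to 0.109. Slc25a51 was also the 1 gene called for any time difference (edgeR adjusted p = 0.0243), against 6.58% of all genes, and passed in 12 of 19 alternatives. Between zones 13 of 27 tested genes differed, 6 periportal and 7 pericentral, with a median of -0.03. Over all genes 24.6% differed, 11.9% periportal and 12.7% pericentral. The wider list was thus split between sides where the members were on 1 side, and that contrast was not tested.

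On the periportal side of the wider list were Slc25a51 (0.91 ± 0.09, log2 ± SE), Aox3, an aldehyde oxidase that acts on the product of Nnmt (0.90 ± 0.08), the kynurenine aminotransferase gene Ccbl1 (0.55 ± 0.09) and the transhydrogenase gene Nnt (0.30 ± 0.08). Nnt was lost with library size alone as the scaling (edgeR adjusted p = 0.0567). On the pericentral side were the aromatic amino acid transporter Slc16a10 (-1.48 ± 0.13), Aox1, the other aldehyde oxidase of that step (-0.70 ± 0.10), the mitochondrial NAD kinase gene Nadk2 (-0.37 ± 0.08) and Gcdh, of the glutarate branch (-0.30 ± 0.06). Slc16a10 averaged 61.6 ± 27.3 CPM pericentrally and 20.3 ± 7.59 CPM periportally, opposite to Tdo2, and was pericentral in 10 of 10 libraries. Aox3 also passed in the middle zone (0.24 ± 0.06; edgeR adjusted p = 0.0345), but was lost in 9 of 20 alternatives.

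The genes whose levels over the 30 sums of 10 libraries and 3 zones were most like those of a member, among 4336 genes of at least 20 CPM, are given by Pearson's r, as a description. The sums of a library share its depth and its cells. For Tdo2 these were Slc2a2 (r = 0.91), the liver glucose transporter, and Slc25a51 (0.91). For Nampt they were Slc37a4 (0.89), the glucose 6-phosphate transporter, and Lpin1 (0.87), a phosphatidate phosphatase. Qprt was most like Ly6e (0.89) and Serpinf2 (0.86), Kmo like Dpyd (0.83) and Enpp2 (0.78), and Haao like Aspdh (0.81) and Fxyd1 (0.81). Nnmt was most like Asl (0.78), a landmark used for the cell order, and Il1rap (0.78), and Kynu like Il13ra1 (0.75) and Slc41a2 (0.74).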

How the data were processed

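UMI counts per gene and cell were deposited by the authors as 1 table per library. Cell Ranger and the builds mm10 and hg19 are named, with no role, per the submitters' processing notes; versions, annotation and strand handling are not given in the sources used here. Cell columns are numbered, so barcodes shared between libraries could not be counted, and 0 identical cell profiles occurred in 2 libraries. All deposited cells (1048 to 10001 UMIs, 8.7% to 34.44% mitochondrial) were kept; no doublet caller was run, and an alternative dropped the deepest 5% of cells. No libraries of a group were copies (chi-square per degree of freedom at least 5.30).

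Counts were summed per library, or per library and zone, and tested with edgeR 4.0.16 (R 4.3.3; TMM factors 0.8876 to 1.143 over time and 0.8674 to 1.17 over zones; genes of at least 3 CPM; Benjamini-Hochberg over all genes; threshold 0.05). The rhythm test fitted a 24-h cosine wave with an F-test on both wave terms. Zone fits had the library as a block. The landmarks were Ass1, Asl, Cyp2f2, Ctsc, Ftcd, Hal, Hsd17b13 and Pigr (periportal) and Aldh1a1, Cyp1a2, Cyp2e1, Gulo, Lect2, Mgst1, Oat and Rgn (pericentral), left out of the counts of calls; scores from 2 separate sets of them correlated across cells with r of 0.678 to 0.836. Ratios and differences per library used a pseudocount of 1 CPM, with 5 CPM as an alternative for the ratios. Both fits were tested on simulated data.

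The members, landmarks and lists were chosen with earlier results of these data known. All members are described; of the wider list up to 4 genes per test and direction with the lowest adjusted p are named, and for members of at least 20 CPM the 2 genes most like each. Letters pair ZT0 and ZT12: deviations from group means over 8907 genes correlated with r = 0.239 (A), 0.428 (B) and 0.485 (C), and these pairs share an index column. Alternatives were DESeq2 1.42.0 and its size factors, library size alone, other filters on genes and cells, other zones and landmarks, blocks for letter and index column, and each library left out. Positions and overlaps are from GENCODE M21, promoters from RefSeq (GRCm38.p6). Of the promoters only that of Nampt is printed. Intervals cover counting error only.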

Additional observations from a re-analysis of the deposited data

Results flagged for a closer look

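Haao was picked out because its zone difference pointed opposite ways at 2 times. In all 3 ZT0 libraries Haao was higher in the periportal zone, by 0.34 ± 0.48 (log2(CPM + 1), SD), and in both ZT18 libraries higher in the pericentral zone, by -0.09 ± 0.10, so that ZT18 minus ZT0 was -0.43. The ZT0 mean rested mostly on ZT0C (0.89), with 0.12 in ZT0A and 0.02 in ZT0B. At ZT18 the values were -0.16 (ZT18A) and -0.02 (ZT18B). The difference between this pair of times was not tested itself; the test of the zone difference over the 24-h wave gave Haao an edgeR adjusted p of 0.87. Among the 10 members, whose zone differences in 10 libraries were each examined for a library far from the others, none had one.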

How the results depend on the processing

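Of the members' values under alternatives, 1276 kept their side of the threshold, 31 passed only under the alternative and 9 were lost. Among values with a direction or peak time that passed in either fit, 0 reversed. Values that passed in neither fit were not counted as reversed. Some of these changed sign, such as Nadsyn1 for ZT18 against ZT6 (log2 difference -0.74 to 0.30). The 2 rhythm calls became 4 with DESeq2, 4 with the letter as a replicate block, 1 with genes of at least 20 CPM (which drops Acmsd, Afmid and Nadsyn1) and 1 without both ZT18 libraries. Over all genes the 458 rhythm calls became 792 with DESeq2 and 749 with the replicate block. They became 283 of 4341 with genes of at least 20 CPM and 231 without ZT18. With the index column as a block the rhythm calls were Nampt, Tdo2 and Nnmt (623 over all genes), and Acmsd was lost. That fit and the one without ZT18 compare ZT0, ZT6 and ZT12 alone. The 2 calls for any time became 5 with the replicate block, 1 with genes of at least 20 CPM, 1 without both ZT18 libraries, and 1 (without ZT18B) to 3 (without ZT0A) with each library left out. Over all genes the 586 calls for any time became 989 with the replicate block. They became 380 with genes of at least 20 CPM and 231 without ZT18. For ZT12 against ZT0 the 1 call became 2 with the replicate block (Nampt and Afmid) and 4 with the index column as a block (Nampt, Tdo2, Afmid and Nnmt). Over all genes these 306 calls became 504 with the replicate block and 767 with the index column as a block. For ZT18 against ZT6 the 1 call became 2 with library size alone, with DESeq2 or with no filter, 0 with genes of at least 20 CPM, 4 with the replicate block, and 0 to 2 with each library left out; where that leaves 1 library at a time, it is assumed to vary like the others. Over all genes the 338 calls became 301 with library size alone, 373 with DESeq2, 595 with no filter and 730 with the replicate block. They became 199 with genes of at least 20 CPM, and also fell where 1 library was left at ZT6 or ZT18. The letters do not pair ZT6 and ZT18 (r = 0.0326 between same-lettered deviations). With the index column as a block ZT18 against ZT6 could not be estimated. The 7 zone calls were 6 to 9, and the middle zone calls 0, under every alternative run. The 0 calls of zone by rhythm became 1 (Nnmt) in cells of at least 3000 UMIs. Over all genes the zone by rhythm calls then went from 3 to 32. The Acmsd to Qprt ratio was 0.157 to 0.438 with each library left out, and passed only without ZT12C. It was 0.103 with a pseudocount of 5 CPM. The cause of these shifts was not tested. With library size alone 27.8% of 2525 zone calls were periportal against 48.3% of 2194 (median of all genes shifted by -0.11), and 66.7% of 303 ZT12 calls were higher against 50.7% of 306. Nadsyn1, Afmid and Acmsd rest on the fewest UMIs of the members.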

Other observations

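Gdap10, the lincRNA annotated inside Nampt on the same strand, was singled out after its values were seen. It averaged 5.98 ± 2.73 (ZT0), 35.8 ± 12.9 (ZT6), 31.2 ± 8.90 (ZT12) and 10.1 ± 1.71 CPM (ZT18; SD, n = 3, 2, 3 and 2), and the libraries of ZT6 and ZT12 lay above all others. Its rhythm had an amplitude of 1.45 with its maximum fitted to ZT 9.34 (edgeR adjusted p = 0.00344), and it passed under all 19 alternatives. It rose by 2.27 ± 0.33 from ZT0 to ZT12 (log2 ± SE; edgeR adjusted p = 0.00153). It was also higher in the periportal zone in 10 of 10 libraries, by 1.35 ± 0.15 (edgeR adjusted p = 3.44e-09). From ZT6 to ZT18 it fell by 1.76 ± 0.39 (log2 ± SE; edgeR adjusted p = 0.0265), a call lost without ZT6A, ZT6B, ZT18A or ZT18B (edgeR adjusted p up to 0.239). Whether its UMIs come from Nampt transcripts was not tested.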
